A study of Mus musculus with 15 samples.

Results

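Chemokine receptors are the surface receptors with which a dendritic cell (DC) finds its way between tissue and lymph node. The 6 genes described here were Ccr7, Ccr2, Ccr1, Cx3cr1, Cxcr4 and Ackr3, which were 6 of the 8251 genes that the arrays measured under a single gene symbol. A probe set, the group of short probes that reports a transcript, was taken for a gene where the platform annotation gave that gene's symbol and no other. Each of the 6 genes had 1 such probe set, so no choice between probe sets was needed.

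Most chemokine receptors are coupled to inhibitory G proteins and turn a gradient of secreted chemokine into directed movement. Immature DC and monocytes carry receptors for inflammatory chemokines, such as Ccr1 and Ccr2, that bring them into inflamed tissue. On maturation DC are known to lose these and to gain Ccr7, whose ligands Ccl19 and Ccl21 lead them through lymphatic vessels to the T cell zone of the lymph node. Cxcr4 responds to Cxcl12, Cx3cr1 to the membrane-bound chemokine Cx3cl1, and Ackr3 is an atypical receptor that takes up Cxcl12 without coupling to G proteins.

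The DC came from female NOD mice aged 6 to 8 weeks, which are prone to autoimmune diabetes. Bone marrow was cultured for 4 days with GM-CSF at 1 ng/ml and purified on 16% metrizamide (GM DC), or with GM-CSF and interleukin-4 at 1 ng/ml each and purified on 14.5% metrizamide (GM4 DC). GM-CSF drives the growth of myeloid cells, and interleukin-4 signals through Stat6. By the title of the series, only the GM4 DC were therapeutic. Bacterial lipopolysaccharide (LPS, 10 µg/ml) and interferon-γ (50 ng/ml) were then added, and RNA was taken at 0, 6 and 20 h. GM DC were measured in 3 samples before stimulation, 2 after 6 h and 2 after 20 h. For GM4 DC the numbers of samples were 3, 3 and 2. The groups thus differed in cytokine and in gradient together, and these cannot be told apart. No culture was kept for 6 or 20 h without LPS and interferon-γ among the samples, so time in culture and stimulation cannot be told apart either. The labels call the replicates biological and say that not every RNA was good enough for an array. For unstimulated GM4 DC the source names speak of exposure while the titles give 0 h, and the titles were followed here.

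Values are probe set signals of 1 array each, on a linear scale that the authors had brought to a trimmed mean of 150 on every array. The median signal of an array was 40.03 to 48.36, and 29.7% to 35.3% of probe sets lay below 16. Differences are given as differences of log2(signal + 16), with limma's standard error after ±, and a fold is 2 to the power of that difference, which understates the change where signals are low. A gene was called higher or lower where the adjusted p of limma, with Benjamini-Hochberg adjustment over 12422 probe sets, was under 0.05. A ± after a mean signal is the SD over the arrays of the group. The number of arrays limits the precision. With 2 or 3 arrays in a group, groups can easily stand apart by chance, so overlap of arrays is given only as a description. The share of all probe sets without overlap is not given.

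The labelled cell type was checked against markers. All 12 DC markers looked for were measured, and none was below 16 on all arrays. They summed to 10970 to 15690 on GM arrays and 18570 to 24840 on GM4 arrays at 0 h, to 16130 to 21250 and 17910 to 26320 at 6 h, and to 9351 to 13280 and 13560 to 15410 at 20 h. Between DC types 14.0%, 11.1% and 4.70% of all probe sets were called at 0, 6 and 20 h. Of the 12 DC markers, 6 were higher in GM4 DC at 0 h and 0 lower (median 1.06). At 6 h 3 were higher and 0 lower, and likewise 3 and 0 at 20 h. Itgax, which encodes CD11c, was not among those called at 0 h, with a mean signal of 1150 in GM DC and 1030 in GM4 DC. Markers of monocytes and macrophages moved with the DC type. Their 11 measured genes of 13 listed summed to 13590 to 16650 on GM arrays at 0 h against 4741 to 5151 on GM4 arrays. At 6 h the sums were 17950 to 24970 against 5096 to 6800, and at 20 h 16080 to 17080 against 9218 to 9459. At 0 h 9 of the 11 were lower in GM4 DC and 0 higher. At 20 h 4 were lower, among them Csf1r and Lyz2. The summed neutrophil markers (12 of 13 measured) ran from 9420 to 9673 in GM DC and from 9848 to 15320 in GM4 DC at 0 h, and from 3474 to 4608 and from 3045 to 3150 at 20 h. Summed B cell markers (9 of 10 measured) were at most 449.6 on any array. Summed T and NK cell markers (8 of 11 measured) were at most 163.3, with Cd3d, Cd3g, Cd2, Cd5 and Ncr1 below 16 on all arrays. Mast cell, basophil and eosinophil markers (11 of 11) summed to at most 635.4, with Ms4a2, Fcer1a, Epx and Prg2 below 16 on all arrays. Plasmacytoid DC markers (4 of 7) summed to at most 602.2 and erythroid markers (6 of 8) to at most 503.5. In these bulk samples fewer cells of a type and less RNA per cell cannot be told apart.

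RNA quality moved with the DC type as well. The 3′ to 5′ signal ratio of the Gapdh control, which rises with degraded RNA, averaged 1.7 ± 0.395 for GM DC (SD, n = 7) and 1.16 ± 0.156 for GM4 DC (SD, n = 8). For β-actin the ratios were 1.81 ± 0.302 and 1.26 ± 0.103. GM 0 h replicate 3 had the highest Gapdh ratio, 2.46, and GM 6 h replicate 1 the highest hybridisation control signal. For the 6 receptors, results are therefore also given where the call changed with these ratios as a covariate or without those 2 arrays. Other genes were not followed in these fits. The mean log2 of the 2 ratios was at least 0.4678 on GM arrays and at most 0.4583 on GM4 arrays. The covariate thus ran with the DC type, and a fit with it cannot tell RNA quality from DC type. The part of RNA quality in the differences was not tested beyond these fits. The hybridisation control signal also ran with the DC type. Its log2 was 7.528 to 8.397 on GM arrays and 6.904 to 7.306 on GM4 arrays, without overlap. The part of this signal in the differences between DC types was not tested.

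The promoter sequences of Cxcr4, Ackr3 and Ccr1 are shown because these were the 3 members that rose between 6 and 20 h in both DC types, where 16.5% of all probe sets were called in GM DC and 11.7% in GM4 DC, in either direction. They are the 250 bases before the start of each gene in RefSeq on GRCm38.p6, the C57BL/6J reference and not NOD. They read 5′ to 3′ on the gene's strand, and capitals mark matches to TATAAA or GGGCGG on either strand. Cxcr4 lies at chr1:128592300-128592549 (minus strand), Ackr3 at chr1:90203730-90203979 (plus strand) and Ccr1 at chr9:123968693-123968942 (minus strand).
Cxcr4: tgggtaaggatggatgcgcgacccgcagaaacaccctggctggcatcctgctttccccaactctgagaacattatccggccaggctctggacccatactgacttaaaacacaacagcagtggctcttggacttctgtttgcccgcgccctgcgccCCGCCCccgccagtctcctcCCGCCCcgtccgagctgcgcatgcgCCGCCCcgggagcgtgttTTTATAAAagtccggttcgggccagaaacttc
Ackr3: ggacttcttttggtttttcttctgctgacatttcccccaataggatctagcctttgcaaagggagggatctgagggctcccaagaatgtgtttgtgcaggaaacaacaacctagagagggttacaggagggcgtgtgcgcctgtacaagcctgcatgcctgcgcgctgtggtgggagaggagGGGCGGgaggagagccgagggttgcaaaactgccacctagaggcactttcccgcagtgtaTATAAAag
Ccr1: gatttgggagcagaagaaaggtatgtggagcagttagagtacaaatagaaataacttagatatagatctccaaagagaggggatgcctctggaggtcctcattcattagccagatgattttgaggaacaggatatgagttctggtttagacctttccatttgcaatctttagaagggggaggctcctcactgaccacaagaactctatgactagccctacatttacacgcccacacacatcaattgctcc

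The Cxcr4 window held 2 overlapping matches to TATAAA, 1 on each strand, 32 to 25 bases before the start, and 3 matches to GGGCGG on the minus strand of the window. The Ackr3 window held 1 TATAAA, 8 to 3 bases before the start, and 1 GGGCGG, 68 to 63 bases before it. The Ccr1 window held no match to either. TATAAA occurred in 12.4% and GGGCGG in 32.7% of the 32851 promoters of that length in the table. Other motifs searched on both strands were TTCNNNGAA, the same with 1 more N, and the NF-kappaB consensus, which occurred in 7.02%, 5.85% and 3.9% of all promoters. None of these 3 was in the windows of Cxcr4, Ackr3, Ccr1 or Cx3cr1, which says only that the letters are not in these windows. The table held 5 of the 6 receptors, and the window of Ccr2 was not used because it begins after the start of the gene. Ccr7 is named only.

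**Figure D1:**
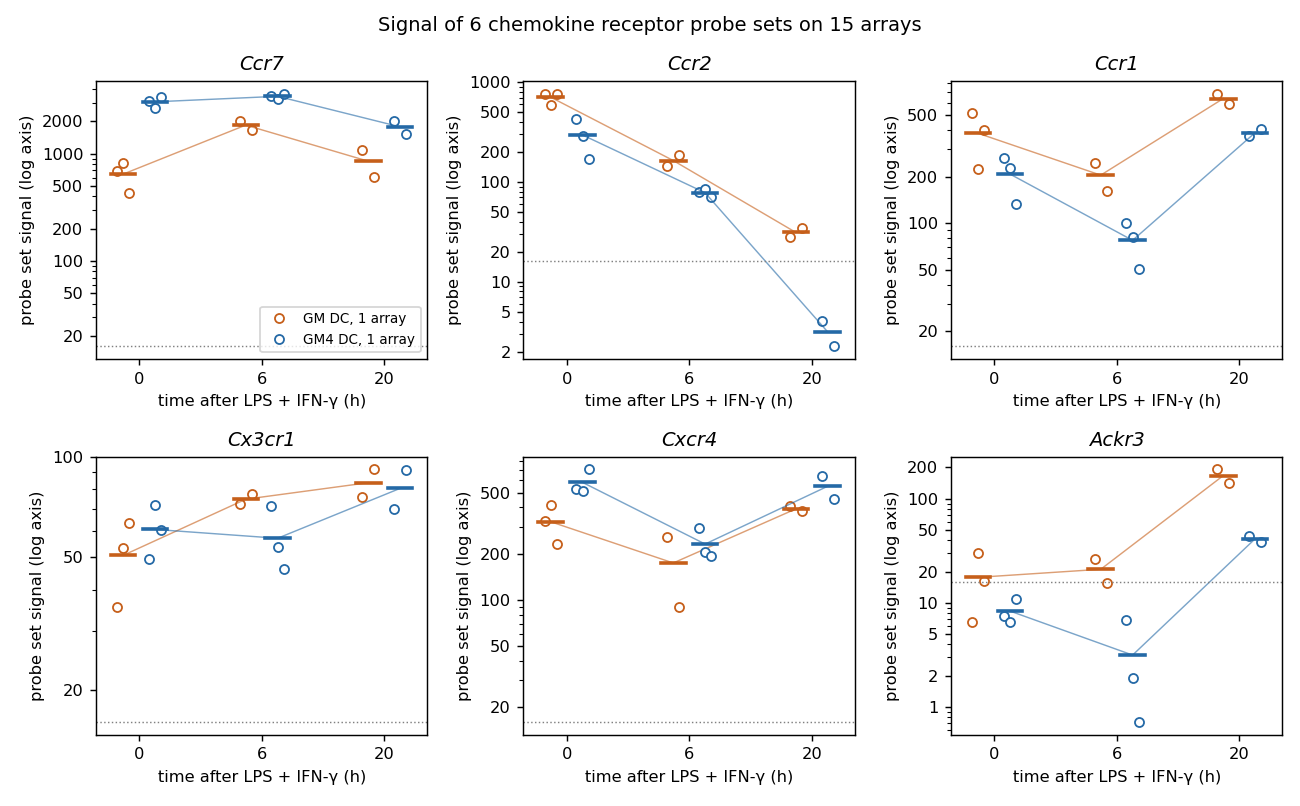
Signal of the 6 receptor probe sets on 15 arrays, by hours after LPS and interferon-γ, on log axes with a range of its own for each gene. Circles are single arrays, thick bars group means joined by lines, orange is GM DC, blue GM4 DC, and the dotted line is a signal of 16. All GM4 arrays lie above the GM arrays of the same time for Ccr7 and below them for Ccr2, and the Cx3cr1 arrays all lie between 35.53 and 91.74.

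Ccr7, the lymph node homing receptor, was already high in GM4 DC before stimulation and rose to 6 h in GM DC. In GM DC its signal was 685, 435.3 and 820 at 0 h, 2040 and 1660 at 6 h, then 1093 and 610.4 at 20 h. In GM4 DC it was 3095, 2671 and 3382 at 0 h, 3439, 3223 and 3632 at 6 h, then 2020 and 1541 at 20 h. The groups of GM and GM4 arrays did not overlap at any time, and the lowest unstimulated GM4 array lay above the highest GM array at any time.

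At 0 h Ccr7 was higher in GM4 DC by 2.25 ± 0.232, a fold of 4.75 (adjusted p 2.87e-05). The difference was 0.89 ± 0.26 at 6 h (adjusted p 0.0415) and 1.10 ± 0.285 at 20 h (adjusted p 0.0421). With stimulation Ccr7 rose in GM DC by 1.53 ± 0.26 from 0 to 6 h (adjusted p 0.000577). In GM4 DC the 6 h arrays overlapped those at 0 h, and the difference of 0.17 ± 0.232 was not called (95% interval -0.325 to 0.674). From 6 to 20 h it fell in both, by 1.16 ± 0.285 in GM DC (adjusted p 0.0123) and by 0.95 ± 0.26 in GM4 DC (adjusted p 0.0287). At 20 h GM DC were not called different from 0 h (0.38 ± 0.26, arrays overlapping), whereas GM4 DC were lower than at 0 h by -0.78 ± 0.26 (adjusted p 0.0477). Some DC markers moved the same way. Besides the 6 of 12 higher in GM4 DC at 0 h, 4 rose and 1 fell in GM DC from 0 to 6 h, with 7 not called. From 6 to 20 h 3 fell in GM DC (9 not called) and 4 in GM4 DC (8 not called), with 0 rising in either. Of all probe sets 24.2%, 16.5% and 11.7% were called in these comparisons in turn, and 14.0% in that at 0 h. The part of the DC markers in the Ccr7 differences was not tested.

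The change of Ccr7 from 0 to 6 h was smaller in GM4 DC than in GM DC by -1.36 ± 0.349 (95% interval -2.11 to -0.609). This difference of responses was not called, with an unadjusted p of 0.00167 and an adjusted p of 0.0906 in limma. Without GM 0 h replicate 3 it was called, at -1.55. At 20 h the difference of responses was -1.15 ± 0.367 (adjusted p 0.169). In order of mean signal the Ccr7 groups were GM4 6 h, GM4 0 h, GM 6 h, GM4 20 h, GM 20 h and GM 0 h. Neighbours whose arrays overlapped were the first and second, the GM 6 h and GM4 20 h groups, and the GM 20 h and GM 0 h groups.

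The Ccr7 calls at 0 h between DC types and from 0 to 6 h in GM DC were made under each setting tried, and the others were not. The difference between DC types at 6 h lost its call without GM 6 h replicate 1 (1.04) or 2 (0.74), and without GM4 6 h replicate 1 (0.89), 2 (0.94) or 3 (0.85). It did so too without GM4 0 h replicate 1 or GM4 20 h replicate 2, which left the difference as it was. The one at 20 h lost it without GM 20 h replicate 2 (0.68), GM4 20 h replicate 1 (0.90) or 2 (1.29), and, with the difference unchanged, without GM 6 h replicate 2 or any single GM4 array of 0 or 6 h. With the RNA quality covariate these differences were 1.11 at 6 h (adjusted p 0.0945) and 1.36 at 20 h (adjusted p 0.12), and that at 0 h was 2.46 (adjusted p 0.000673). Median centring ended the calls at 6 h (adjusted p 0.054) and 20 h (adjusted p 0.0595), as did a fit without the intensity trend (adjusted p 0.0525 and 0.0568). Array weights ended the one at 6 h (0.85, adjusted p 0.0721), and a fit of only the groups compared the one at 20 h (adjusted p 0.0972).

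The fall of Ccr7 from 6 to 20 h in GM DC was not called without GM 6 h replicate 1 (-1.01) or GM 20 h replicate 2 (-0.74), or in a fit of only the groups compared (adjusted p 0.0517). The fall in GM4 DC was not called without GM4 20 h replicate 1 (-1.14) or 2 (-0.76), or without GM4 6 h replicate 1 (-0.95), 2 (-0.996) or 3 (-0.91). Ccr7 in GM4 DC at 20 h against 0 h was not called without GM4 0 h replicate 1 (-0.76), 2 (-0.87) or 3 (-0.70), GM4 20 h replicate 1 (-0.97) or 2 (-0.58), or, with the difference unchanged, without GM 0 h replicate 1 or any single 6 h array. It was also lost under median centring (adjusted p 0.0749) and without the intensity trend (adjusted p 0.0601).

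Ccr2, the receptor for Ccl2 that draws monocytes out of bone marrow and into inflamed tissue, fell with time in both DC types and was lower in GM4 DC throughout. Its signal in GM DC was 765.9, 765.8 and 586.4 at 0 h, 143 and 184.8 at 6 h, then 27.87 and 34.63 at 20 h. In GM4 DC it was 426.9, 289.5 and 169.9 at 0 h, 78.66, 84.08 and 71.1 at 6 h, then 4.054 and 2.253 at 20 h. Within a DC type no array of a later time overlapped one of an earlier time, and the 20 h GM4 arrays lay below the offset of 16.

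From 0 to 20 h Ccr2 fell by 3.93 ± 0.272 in GM DC, a fold of 15.2 (adjusted p 1.81e-07), and by 3.94 ± 0.272 in GM4 DC, a fold of 15.3 (adjusted p 3.29e-07). Both intervals carried part of this fall. In GM DC it fell by 2.00 ± 0.272 to 6 h and then fell by 1.92 ± 0.298 (adjusted p 9.81e-05 and 0.000553). GM4 DC values fell by 1.64 ± 0.243 and then fell by 2.29 ± 0.272 (adjusted p 0.000372 and 0.000127). The difference of responses between the DC types was not called, at 0.36 ± 0.365 to 6 h (95% interval -0.424 to 1.15) and -0.01 ± 0.385 to 20 h (-0.837 to 0.817). The GM4 signals at 20 h lay below the offset, and the offset sets the size of that fall. With an offset of 1 the GM4 fall from 0 to 20 h was -6.09 and the GM one -4.45, and with 64 they were -2.36 and -3.01. The difference of responses to 20 h was then -1.64 and 0.65, neither called (adjusted p 0.0944 and 0.442), so whether the falls differed in size is not settled.

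Between DC types Ccr2 was lower in GM4 DC by -1.29 ± 0.243 at 0 h (adjusted p 0.00275), by -0.93 ± 0.272 at 6 h (adjusted p 0.0421) and by -1.30 ± 0.298 at 20 h (adjusted p 0.0236), with no overlap of arrays at any of them. The summed monocyte and macrophage markers were lower in GM4 DC at these times too, as given above. Their part in the Ccr2 difference was not tested. With the RNA quality covariate the differences of Ccr2 were -1.79, -1.45 and -1.94 at 0, 6 and 20 h (adjusted p 0.00308, 0.0194 and 0.0203).

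The 0 h difference of Ccr2 and all of its changes with time were called under each setting tried. At 6 h the difference between DC types was not called without GM 6 h replicate 1 (-1.10) or 2 (-0.76), or GM4 6 h replicate 1 (-0.94), 2 (-0.98) or 3 (-0.88). With the difference unchanged, it was not called without GM 0 h replicate 2, GM4 0 h replicate 2 or any single 20 h array. At 20 h it was not called without GM 20 h replicate 1 (-1.40) or 2 (-1.20), or GM4 20 h replicate 1 (-1.37) or 2 (-1.23). The size of the 20 h difference depends on the offset, being -2.98 with an offset of 1 (adjusted p 2e-04) and -0.50 with 64 (adjusted p 0.339). The 6 h call was lost with an offset of 64 (-0.68, adjusted p 0.079) and with array weights (-0.89, adjusted p 0.0666). The groups in order of signal were GM 0 h, GM4 0 h, GM 6 h, GM4 6 h, GM 20 h and GM4 20 h, and of neighbours only GM4 0 h and GM 6 h overlapped.

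Ccr1, a receptor for Ccl3, Ccl5, Ccl6 and Ccl9 on monocytes, neutrophils and immature DC, fell to 6 h in GM4 DC and rose from 6 to 20 h in both DC types. In GM DC its signal was 518.3, 400.4 and 223.5 at 0 h, 246.7 and 162.1 at 6 h, then 686.6 and 590.5 at 20 h. GM4 DC arrays read 264.3, 226 and 132.5 at 0 h, 100.1, 81.67 and 50.73 at 6 h, then 363.4 and 405.6 at 20 h. The 20 h arrays were the highest of their DC type, and the GM arrays at 0 and 6 h overlapped.

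The rise from 6 to 20 h was 1.59 ± 0.367 in GM DC, a fold of 3.02 (adjusted p 0.00816), and 2.13 ± 0.335 in GM4 DC, a fold of 4.39 (adjusted p 0.00092). In GM4 DC Ccr1 fell by 1.25 ± 0.3 from 0 to 6 h (adjusted p 0.0108). In GM DC the difference over those hours was -0.80 ± 0.335 (95% interval -1.52 to -0.0789, adjusted p 0.107). At 20 h against 0 h the arrays did not overlap in either DC type, with differences of 0.79 ± 0.335 in GM DC (adjusted p 0.1) and 0.89 ± 0.335 in GM4 DC (adjusted p 0.0776). The responses of the DC types were not called different, at -0.45 ± 0.45 to 6 h (-1.41 to 0.52) and 0.09 ± 0.474 to 20 h (-0.924 to 1.11).

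Between DC types Ccr1 was called at 6 h, where GM4 DC were lower by -1.25 ± 0.335 (adjusted p 0.0272). At 0 h the difference was -0.80 ± 0.3 (-1.44 to -0.157, adjusted p 0.0975) with overlapping arrays, and at 20 h -0.71 ± 0.367 (-1.5 to 0.0817, adjusted p 0.361) without overlap. GM 0 h replicate 3 had the lowest Ccr1 signal of its group and the highest Gapdh ratio of all arrays. Without it the 0 h difference was called, at -1.13, as was the GM change from 0 to 6 h, also at -1.13, and the GM4 change from 0 to 20 h, unchanged at 0.89. Other arrays moved these values the other way. Leaving out GM 0 h replicate 1 gave -0.55 for the 0 h difference and -0.55 for the GM change from 0 to 6 h, neither called. Leaving out GM4 0 h replicate 3 gave a 0 h difference of -0.53, not called. With the RNA quality covariate the differences between DC types were called at 0 h (-1.79, adjusted p 0.000727), at 6 h (-2.26, adjusted p 0.000399) and at 20 h (-1.96, adjusted p 0.00811). Under it the changes from 0 h in GM DC, -0.89 to 6 h and 1.02 to 20 h, and the GM4 change of 0.85 to 20 h were called too.

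The rise of Ccr1 from 6 to 20 h in GM4 DC was called under each setting tried. That in GM DC was not called without GM 6 h replicate 2 (1.31) or GM 20 h replicate 1 (1.49). The fall of Ccr1 in GM4 DC to 6 h was not called without GM4 0 h replicate 1 (-1.06) or GM4 6 h replicate 3 (-1.02). The 6 h difference between DC types was not called without GM 6 h replicate 1 (-0.97), GM4 6 h replicate 2 (-1.30) or GM4 6 h replicate 3 (-1.02), nor with an offset of 64 (-0.92, adjusted p 0.0521) or in a fit of only the groups compared (adjusted p 0.0561). Without GM 0 h replicate 1 the GM change from 0 to 20 h was called, at 1.05. The 20 h difference between DC types was called in a fit of only the groups compared (adjusted p 0.0408). Among the Ccr1 groups in order (GM 20 h, GM4 20 h, GM 0 h, then GM 6 h and GM4 0 h, and last GM4 6 h), the highest and the lowest stood clear of their neighbours, while the 4 in between each overlapped the next.

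Cx3cr1, the receptor for fractalkine that marks patrolling monocytes and DC precursors, was called in none of the 11 comparisons. Its signal in GM DC was 35.53, 63.17 and 53.29 at 0 h, 72.13 and 77.17 at 6 h, then 75.6 and 91.74 at 20 h. In GM4 DC it was 49.36, 71.85 and 60.52 at 0 h, 71.37, 53.5 and 46.12 at 6 h, then 69.88 and 91.07 at 20 h. GM DC at 6 and at 20 h lay above all GM arrays at 0 h, and the DC types overlapped at 0 and 20 h.

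Against 0 h the Cx3cr1 difference in GM DC was 0.47 ± 0.23 at 6 h (95% interval -0.0291 to 0.96) and 0.60 ± 0.23 at 20 h (0.104 to 1.09, adjusted p 0.0718). The 6 h difference was called under quantile normalization (0.63, adjusted p 0.0449). The 20 h difference was called without GM 0 h replicate 2 (0.73), and under a filter on low signals, median centring (0.71), quantile normalization (0.73) and no intensity trend. In GM4 DC the difference was -0.07 ± 0.206 at 6 h (-0.516 to 0.369) and 0.34 ± 0.23 at 20 h (-0.16 to 0.829). Between DC types it was 0.21 ± 0.206 at 0 h (-0.23 to 0.654), -0.33 ± 0.23 at 6 h (-0.821 to 0.168) and -0.05 ± 0.252 at 20 h (-0.593 to 0.491). From 6 to 20 h it was 0.13 ± 0.252 in GM DC (-0.409 to 0.674) and 0.41 ± 0.23 in GM4 DC (-0.0862 to 0.903). The difference of responses was -0.54 ± 0.309 to 6 h (-1.2 to 0.125) and -0.26 ± 0.326 to 20 h (-0.962 to 0.436). The Cx3cr1 intervals reach -1.2 and 1.09, beyond the smallest difference called for another member (-0.78, Ccr7). They thus do not show that the groups were alike. The Cx3cr1 groups in order were GM 20 h, GM4 20 h, GM 6 h, GM4 0 h, GM4 6 h and GM 0 h, and each overlapped the next except GM 6 h and GM4 0 h.

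Cxcr4, which holds leukocytes in bone marrow through Cxcl12 and also takes part in DC migration from skin, had its lowest mean at 6 h in both DC types. In GM DC its signal was 325.7, 229.7 and 412.9 at 0 h, 258 and 90.08 at 6 h, then 405.9 and 376.7 at 20 h. GM4 DC arrays read 526.6, 512.1 and 708 at 0 h, 293.4, 206.3 and 193.6 at 6 h, then 644.5 and 454.5 at 20 h. The 6 h GM4 arrays lay clear below both other GM4 times, while the GM arrays at 6 h were far apart and overlapped those at 0 h.

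In GM4 DC Cxcr4 fell by 1.28 ± 0.299 from 0 to 6 h, a fold of 2.43 (adjusted p 0.00898), which was called under each setting tried. It rose from 6 to 20 h by 1.20 ± 0.335 in GM4 DC (adjusted p 0.0325) and by 1.25 ± 0.367 in GM DC (adjusted p 0.0308). The GM difference from 0 to 6 h was -0.95 ± 0.335 (95% interval -1.67 to -0.235, adjusted p 0.0529). At 20 h neither was called against 0 h, with 0.30 ± 0.335 in GM DC (-0.417 to 1.02) and -0.09 ± 0.335 in GM4 DC (-0.805 to 0.632). The responses of the DC types were not called different, at -0.33 ± 0.449 to 6 h (-1.29 to 0.636) and -0.39 ± 0.473 to 20 h (-1.4 to 0.628).

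Between DC types the Cxcr4 arrays did not overlap at 0 h, where GM4 DC lay above GM DC by 0.84 ± 0.299 (0.199 to 1.48), or at 20 h, by 0.45 ± 0.367 (-0.334 to 1.24). Neither was called (adjusted p 0.081 and 0.61), nor was the 0.51 ± 0.335 at 6 h (-0.205 to 1.23). Several calls changed without a GM 6 h array. Without GM 6 h replicate 2, the low one at 90.08, the GM rise from 6 to 20 h was 0.57 and not called. Without replicate 1 the GM change from 0 to 6 h was -1.64 and the difference between DC types at 6 h was 1.20, and both were called. Without GM 0 h replicate 2 the GM change to 6 h was called, at -1.17. Without either GM 6 h array the 0 h difference between DC types, unchanged at 0.84, was called. With all arrays kept, the 0 h difference was also called under a filter on low signals and under array weights. The GM change to 6 h was called under that filter and with an offset of 1. The GM rise from 6 to 20 h was also not called without GM 20 h replicate 1 (1.20) or 2 (1.31), with the RNA quality covariate (1.19, adjusted p 0.0521) or in a fit of only the groups compared (adjusted p 0.115). The GM4 rise was not called without GM4 20 h replicate 1 (0.95) or 2 (1.44), or GM4 6 h replicate 2 (1.13) or 3 (1.09). In order the Cxcr4 groups were GM4 0 h, GM4 20 h, GM 20 h, GM 0 h, GM4 6 h and GM 6 h, and of neighbours only GM4 20 h and GM 20 h did not overlap.

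Ackr3, the scavenger of Cxcl12 and Cxcl11, was near the floor of the array until 6 h and rose by 20 h in both DC types. Its signal in GM DC was 6.564, 16.28 and 30.03 at 0 h, 26.66 and 15.43 at 6 h, then 191.5 and 142.1 at 20 h. In GM4 DC it was 7.486, 6.603 and 10.97 at 0 h, 6.832, 1.924 and 0.7171 at 6 h, then 43.69 and 38.86 at 20 h. Every 20 h array lay above every earlier array of either DC type, and all GM4 arrays at 0 and 6 h lay below 16.

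Ackr3 rose from 0 to 20 h by 2.49 ± 0.273 in GM DC, a fold of 5.62 (adjusted p 1.01e-05), and by 1.24 ± 0.273 in GM4 DC, a fold of 2.36 (adjusted p 0.00495). The rise came between 6 and 20 h, with 2.31 ± 0.299 in GM DC (adjusted p 0.000143) and 1.59 ± 0.273 in GM4 DC (adjusted p 0.00168). The size in GM4 DC depends on the offset, since its earlier signals lay below 16. From 0 to 20 h it was 2.20 with an offset of 1 and 0.54 with 64, and from 6 to 20 h 3.63 and 0.65, all called. In GM DC the rise from 6 to 20 h was 2.96 and 1.44. From 0 to 6 h the differences were 0.18 ± 0.273 in GM DC (95% interval -0.404 to 0.771) and -0.36 ± 0.244 in GM4 DC (-0.88 to 0.17), and neither was called. All 4 changes to 20 h were called under each setting that tested Ackr3. Its mean signal was too low for the filter at the 40th percentile, which left it out. The response to 20 h was smaller in GM4 DC by -1.25 ± 0.387 (-2.08 to -0.423), with an unadjusted p of 0.00603 and an adjusted p of 0.153, and so was not called. With an offset of 64 it was called (-0.96, adjusted p 0.0194). To 6 h it was -0.54 ± 0.367 (-1.33 to 0.249).

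Between DC types Ackr3 was lower in GM4 DC by -1.66 ± 0.299 at 20 h, a fold of 3.17 (adjusted p 0.00567), and by -0.95 ± 0.273 at 6 h (adjusted p 0.0395). At 0 h the difference was -0.41 ± 0.244 (-0.934 to 0.116) with overlapping arrays. The 20 h call was not made with the RNA quality covariate (-1.05, adjusted p 0.215) or an offset of 1 (-1.98, adjusted p 0.131). The 6 h difference sets signals of 26.66 and 15.43 against signals of at most 6.832. It was not called without GM 6 h replicate 1 (-0.73), GM4 6 h replicate 2 (-0.91) or GM4 6 h replicate 3 (-0.86), and was -0.45 with the RNA quality covariate (adjusted p 0.511). With an offset of 1 it was -2.65 (adjusted p 0.0127), and with 64 it was -0.34 and not called (adjusted p 0.095). With the difference unchanged, it was not called without GM 0 h replicate 2, GM4 0 h replicate 1 or 2, or either GM4 20 h array. In order the Ackr3 groups were GM 20 h, GM4 20 h, GM 6 h, GM 0 h, GM4 0 h and GM4 6 h. The 20 h groups stood clear, and the others each overlapped the next.

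**Figure D2:**
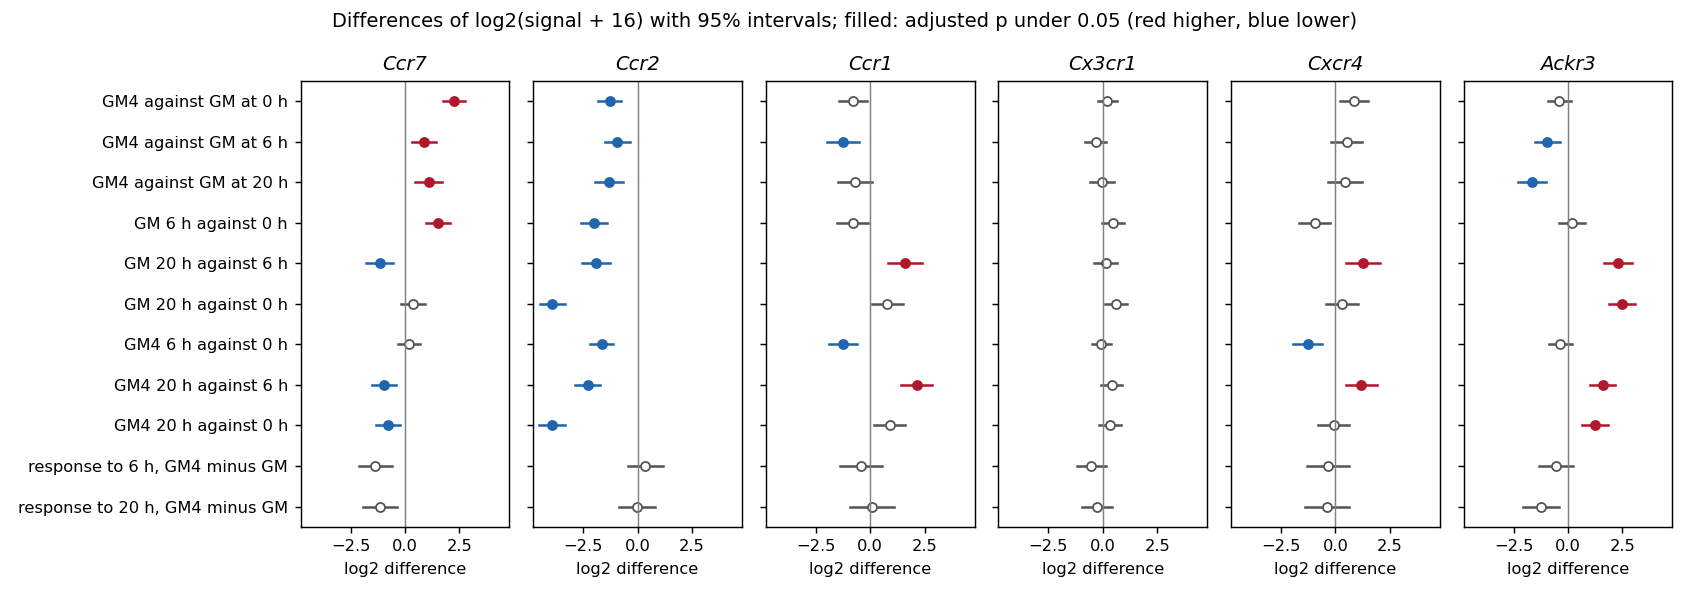
Differences of log2(signal + 16) for the 6 receptors in 11 comparisons, with 95% intervals from limma. Filled points were called (red higher, blue lower in the group named first) and open points were not. Ccr2 is blue in all 9 comparisons of groups, Cx3cr1 is open in all 11, and the last 2 rows, the differences of responses, are open for every gene.

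Set against all probe sets, the 6 receptors were called as follows. Between DC types at 0 h 1 was higher in GM4 DC (Ccr7), 1 lower (Ccr2) and 4 not called, where 14.0% of all probe sets were called. At 6 h it was 1 higher and 3 lower against 11.1% of all, and at 20 h 1 higher and 2 lower against 4.70%. The median difference of the 6 was -0.10, -0.63 and -0.38 at 0, 6 and 20 h, beside -0.06, -0.04 and -0.04 over all probe sets. The totals behind these shares move with single arrays and settings. The number of probe sets called at 6 h was 1383 and fell to 604 without GM 6 h replicate 1, and that at 20 h was 584 and fell to 146 without GM4 20 h replicate 1. With the RNA quality covariate they were 794 and 335.

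In GM DC 1 receptor was higher and 1 lower at 6 h than at 0 h, where 24.2% of all probe sets were called. From 6 to 20 h 3 were higher and 2 lower, against 16.5%, and from 0 to 20 h 1 was higher and 1 lower, against 27.0%. In GM4 DC 0 were higher and 3 lower from 0 to 6 h, against 15.9% of all. From 6 to 20 h 3 were higher and 2 lower, against 11.7%, and from 0 to 20 h 1 was higher and 2 lower, against 21.0%. The interval from 6 to 20 h thus held calls in the same direction for the same 5 receptors in both DC types: Ccr1, Cxcr4 and Ackr3 rose, and Ccr7 and Ccr2 fell. For the differences of responses limma called 0 of the 6 at 6 h and 0 at 20 h, where 0.958% and 1.26% of all probe sets were called. At an unadjusted p under 0.05 there were 1 (Ccr7) and 2 (Ccr7 and Ackr3). Each comparison from 6 h shares its 6 h arrays with the comparison from 0 h.

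Without GM 0 h replicate 3 and GM 6 h replicate 1 together, the difference between DC types at 6 h was called for none of the 4 receptors called with them. Its values were 1.04 for Ccr7, -1.10 for Ccr2, -0.97 for Ccr1 and -0.73 for Ackr3 (adjusted p 0.0788, 0.0988, 0.139 and 0.178), while that of Cxcr4 was called, at 1.20 (adjusted p 0.0284). Ccr7 in GM DC from 6 to 20 h was not called either (-1.01, adjusted p 0.067). Newly called were Ccr1 (-1.13) and Cxcr4 (1.03) between DC types at 0 h and both in GM DC from 0 to 6 h (-1.40 and -1.45), as well as Ccr1 in GM4 DC from 0 to 20 h.

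Other genes of chemokine sensing were taken from lists. Over all probe sets 852 were higher and 884 lower in GM4 DC at 0 h, with a median of -0.06. At 6 h 794 were higher and 589 lower, and at 20 h 390 were higher and 194 lower. From 0 to 6 h 1058 rose and 1954 fell in GM DC (median -0.01), and 725 rose and 1245 fell in GM4 DC (median 0.01). From 6 to 20 h 1081 rose and 963 fell in GM DC (median 0.02), and 706 rose and 746 fell in GM4 DC (median 0.03). The list counts are read beside these. Other settings were followed for the 6 receptors only, so calls of list genes come from the fit without covariate to all 15 arrays. With the RNA quality covariate, the number of all probe sets called between DC types at 0 h fell from 1736 to 964. Of 17 other chemokine receptors listed 13 were measured. Ccrl2, an atypical receptor that holds the attractant chemerin at the cell surface, had a mean signal of 82.2 ± 1.73, 584 ± 66.7 and 384 ± 14.4 in GM DC and of 75.6 ± 7.37, 258 ± 49 and 314 ± 12.5 in GM4 DC over the 3 times. From 0 to 6 h it rose by 2.61 ± 0.15 in GM DC (adjusted p 4.08e-08) and by 1.57 ± 0.13 in GM4 DC (adjusted p 2.41e-06). The response of Ccrl2 was smaller in GM4 DC by -1.04 ± 0.2, and this difference was called (adjusted p 0.0244). Ccr6 fell by 1.89 ± 0.56 in GM4 DC from 0 to 6 h (adjusted p 0.034), and Cxcr2, a neutrophil receptor, by 0.80 ± 0.21 (adjusted p 0.0162). Cxcr5, which leads cells to B cell follicles, rose there by 0.97 ± 0.3 (adjusted p 0.0446). In that comparison 2 of the 13 were higher, 2 lower and 9 not called, with a median of 0.22, where 15.9% of all probe sets were called. Between DC types 1 of 13 was called at 0 h, higher in GM4 DC, 1 at 6 h, lower, and 0 at 20 h, where 1 had an unadjusted p under 0.05 in limma. Of all probe sets 14.0%, 11.1% and 4.70% were called at these times.

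Of 14 ligands of the 6 receptors 11 were measured. Between DC types at 0 h 6 were higher in GM4 DC, 3 lower and 2 not called, with a median of 0.90. Of all probe sets 14.0% were called there. Cx3cl1, the ligand of Cx3cr1, had a mean signal of 1040 ± 230 in GM4 DC and 300 ± 93.1 in GM DC at 0 h (difference 1.77 ± 0.23). From 0 to 20 h Cx3cl1 fell by 1.60 ± 0.26 in GM4 DC and fell by 1.24 ± 0.26 in GM DC. Ccl12, a Ccr2 ligand, was higher in GM4 DC by 2.31 ± 0.3 at 0 h, from 6.33 ± 3 in GM DC to 100 ± 47.7. Ccl5, a Ccr1 ligand, was higher by 1.88 ± 0.36.

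The ligands that were lower in GM4 DC at 0 h were Ccl6 (-1.89 ± 0.28), Ccl3 (-1.75 ± 0.25) and Ccl9 (-0.65 ± 0.15), all of which bind Ccr1. From 0 to 6 h 4 of 11 ligands rose and 0 fell in GM DC, led by Ccl5 (2.86) and Ccl12 (2.76). In GM4 DC 3 rose and 1 fell, led by Ccl3 (3.18). Of all probe sets 24.2% were called over those hours in GM DC and 15.9% in GM4 DC. The response of Ccl5 to 6 h was smaller in GM4 DC by -2.78 ± 0.54 (adjusted p 0.0244), with a mean signal of 10500 ± 2910 in GM DC and 5580 ± 801 in GM4 DC at 6 h. At 20 h, where 4.70% of all probe sets were called between DC types, 5 ligands were higher in GM4 DC and 0 lower. Among them were the Ccr2 ligands Ccl7 (3.60 ± 0.56) and Ccl12 (3.03 ± 0.37), while Ccr2 itself was lower there. Cxcl12, the ligand of Cxcr4 and Ackr3, was called in none of these comparisons, at 49.2 ± 51.5 in GM DC and 20.6 ± 2.56 in GM4 DC at 0 h.

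Of 31 signalling and desensitisation genes of these receptors 22 were measured. In GM DC from 0 to 6 h 2 rose and 6 fell, and in GM4 DC 1 rose and 6 fell, with medians of 0.00442 and -0.07. Of all probe sets 24.2% and 15.9% were called over those hours. Rgs2, which shortens G protein signals, went from 594 ± 79.5 to 67.3 ± 29.6 in GM DC, a fall of 2.91 ± 0.2 (adjusted p 2.17e-07), and from 160 ± 13.5 to 99.3 ± 9.94 in GM4 DC, a fall of 0.61 ± 0.18 (adjusted p 0.0322). The difference of these responses of Rgs2, 2.30 ± 0.27, was called (adjusted p 0.00141). The receptor kinase Grk6 fell by 2.42 ± 0.21 in GM DC and by 0.80 ± 0.19 in GM4 DC, and its difference of 1.62 ± 0.28 was called (adjusted p 0.0135). Rassf5, which links Rap1 to integrins, fell by 2.00 ± 0.12 and 1.04 ± 0.11, and that difference was called as well (0.96 ± 0.17, adjusted p 0.0135). These differences of responses, like those of Ccrl2 and Ccl5, rest on 2 GM 6 h arrays and were not followed without either. Over all probe sets 119 differences of responses to 6 h were called, and 54 without GM 6 h replicate 1. Arrb1, a β-arrestin that takes receptors off the surface, fell by 1.60 ± 0.24 to 6 h in GM DC and fell by 1.86 ± 0.21 in GM4 DC. It rose from 6 to 20 h by 1.57 ± 0.26 and 1.62 ± 0.24. Ptk2b, the chemokine-activated kinase Pyk2, rose to 6 h by 1.45 ± 0.16 and 1.19 ± 0.14. Dock2, the Rac activator that leukocytes need to migrate, was higher in GM4 DC by 1.19 ± 0.19 at 0 h and by 1.30 ± 0.22 at 6 h.

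Of 43 genes of DC adhesion, cytoskeleton and mobilisation 37 were measured. Between DC types at 0 h 14.0% of all probe sets were called. Of the 37 genes 11 were higher in GM4 DC, 6 lower and 20 not called, with a median of 0.17. Among the higher were Sema7a (1.95 ± 0.2), a semaphorin, Marcks (1.67 ± 0.23), an actin regulator, and the integrin ligand Icam1 (1.53 ± 0.23). Nrp1 (-1.63 ± 0.17), a semaphorin receptor, Sema4d (-1.49 ± 0.18) and Sirpa (-1.32 ± 0.13), the receptor of Cd47, were lower. From 0 to 6 h 24.2% of all probe sets were called in GM DC and 15.9% in GM4 DC. Of the 37 genes 11 rose and 6 fell in GM DC, and 6 rose and 6 fell in GM4 DC. Sema7a rose in both, by 2.03 ± 0.22 and 1.39 ± 0.2, and Coro1a, an actin regulator, fell in both, by 1.38 and 0.72.

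From 6 to 20 h 16.5% of all probe sets were called in GM DC and 11.7% in GM4 DC. Of the 37 genes 7 rose and 13 fell in GM DC, and 4 rose and 10 fell in GM4 DC. Mmp9, a matrix protease that DC use to leave tissue, rose by 2.43 ± 0.3 in GM DC and 2.57 ± 0.28 in GM4 DC. Its mean signal went from 19.8 ± 8.58 to 177 ± 47.4 and from 21.2 ± 8.51 to 200 ± 11.1. Ptger4, the prostaglandin E receptor that promotes DC migration, fell by 1.67 in GM DC and was higher in GM4 DC at 20 h by 1.99. Fscn1, the actin bundling protein of mature DC, fell by 1.58 ± 0.3 in GM DC, from 4770 ± 385 to 1580 ± 46.1.

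**Figure D3:**
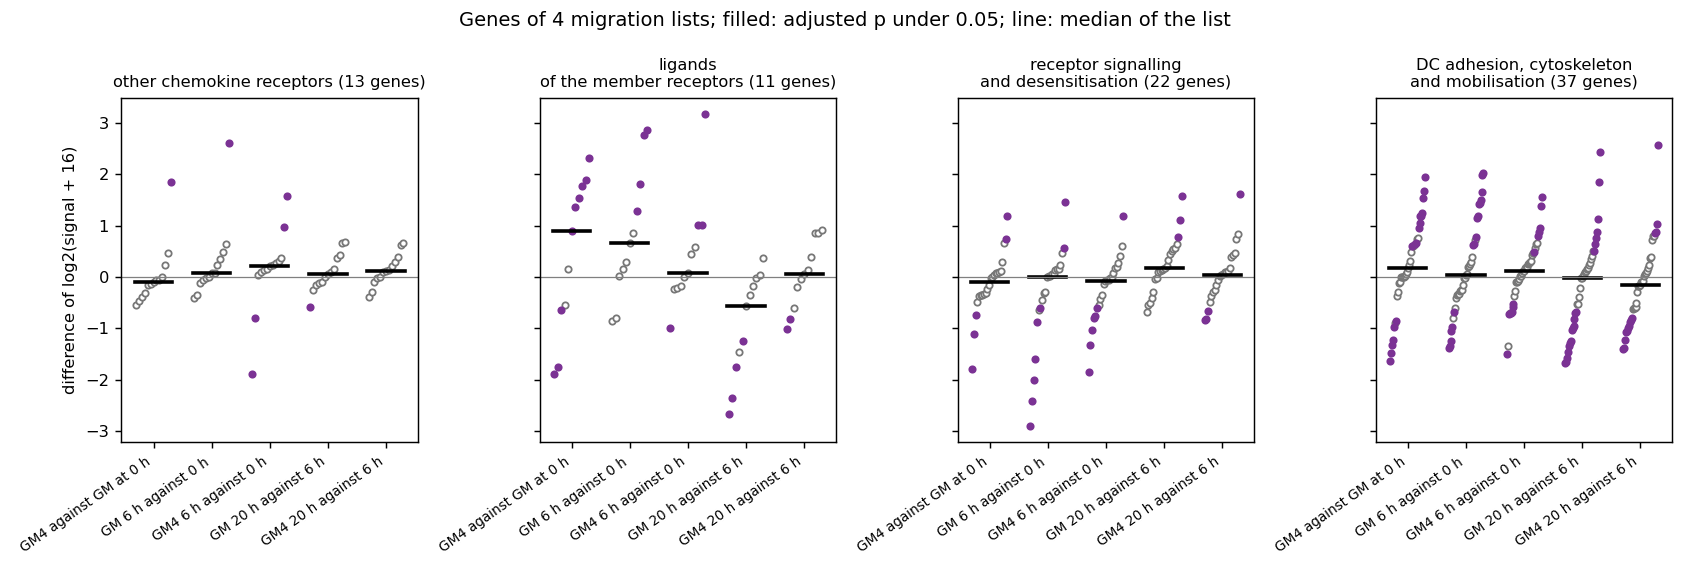
Differences of log2(signal + 16) for the measured genes of 4 lists in 5 comparisons, with each gene as a point in order of size within its comparison. Filled points were called, open ones not, and the black line is the median of the list. The filled points of the 13 other receptors number at most 4 in a comparison, and those of the 37 adhesion and mobilisation genes lie on both sides of 0 in every comparison shown.

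The genes whose log2 signal followed each receptor most closely over the 15 arrays were sought among 1485 genes with a mean at or above the median and an SD of at least 0.5. The arrays share 6 groups, so Pearson's r here describes a shared group pattern and is given with no test. For Ccr7 they were Relb (r 0.965), an NF-κB subunit, Cd83 (0.964) and Irf4 (0.949), the latter 2 also on the DC marker list. Mean signals of Relb at 0, 6 and 20 h were 202, 438 and 204 in GM DC and 860, 983 and 364 in GM4 DC. Irf4 had 318, 618 and 303 in GM DC and 1460, 2060 and 929 in GM4 DC.

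For Ccr2 the nearest were Mrc1 (r 0.965), the mannose receptor, which is on the monocyte and macrophage marker list, Chd4 (0.961) and Prkcb (0.952). Mean signals of Mrc1 were 822, 310 and 24.3 in GM DC and 345, 158 and 11.9 in GM4 DC. For Ccr1 they were the inhibitory Fc receptor gene Fcgr2b (0.952), Vamp4 (0.939) and Ncf4 (0.937). Fcgr2b went from 1870 through 708 to 3610 in GM DC and from 965 through 200 to 1370 in GM4 DC. For Ackr3 they were Acvrl1 (0.96), Ddit3 (0.956) and Rcan1 (0.955). Acvrl1, a receptor of the TGF-β family, had means of 197, 304 and 794 in GM DC and 155, 139 and 350 in GM4 DC.

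For Cxcr4 the nearest genes were St6gal1 (0.869), Fam110a (0.865) and Pmm2 (0.859). St6gal1, a sialyltransferase, had its lowest mean at 6 h in both DC types, with means of 206, 40.1 and 123 in GM DC and 562, 98.8 and 378 in GM4 DC. For Cx3cr1 the highest values were lower than for the others, at 0.779 for Dnajc1, 0.778 for Rgcc and 0.776 for Hic1.

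**Figure D4:**
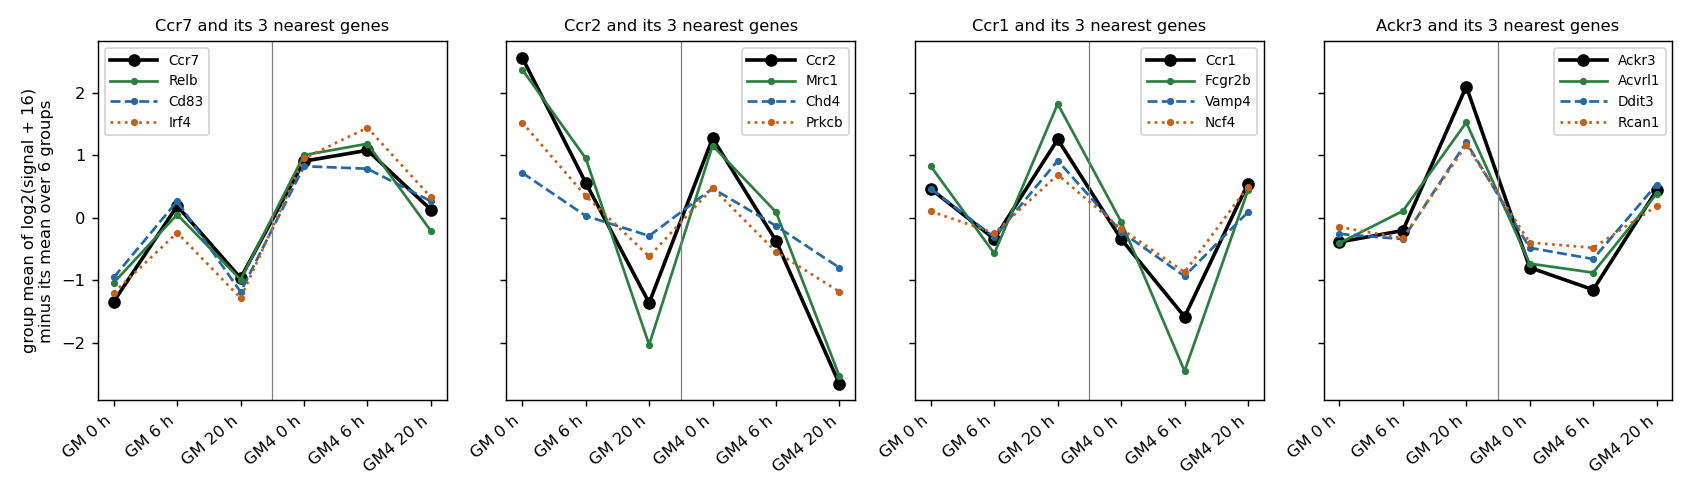
Group means of log2(signal + 16) of Ccr7, Ccr2, Ccr1 and Ackr3 (black) and of the 3 genes with the highest Pearson r to each (coloured), each minus its own mean over the 6 groups. Groups are in order of time, GM DC left and GM4 DC right of the line. All lines in the Ccr2 panel fall from 0 to 20 h in both DC types, every line in the Ackr3 panel is highest at GM 20 h, and those of Chd4, with Ccr2, and Ncf4, with Ccr1, span less.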

How the data were processed

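Total RNA was measured on 15 Affymetrix mouse arrays, 1 per sample. The authors deposited a linear intensity for each probe set, made with MAS5 according to the submitters' processing notes, with no version given. Each array was scaled on its own, which hides any change in total RNA. Groups follow the sample titles. The labels of GM4 0 h replicate 1 lack the doses and gradient given for the other 0 h samples. Detection calls and probe sequences were not used here, so signal from related receptors was not separated.

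All 12422 probe sets other than the 66 controls were tested, of 12488 in all, with no filter. The annotation gave 1 symbol for 10833, several for 396 and none for 1193, and a match of 10817 by Entrez number to a reference table changed 0 symbols. A linear model of 6 group means on log2(signal + 16) was fitted in R 4.3.3 with limma 3.58.1 to all 15 arrays (9 residual degrees of freedom, prior 4.76, intensity trend), for 11 comparisons. The fit was tested on simulated data with independent normal noise. These held no shared batch and no RNA quality difference, so the simulation does not test those limits. Replicates of a group correlated at 0.966 to 0.988.

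All 6 members are described. Of each list and comparison, at most the 3 largest increases and 3 largest decreases among called genes whose arrays did not overlap could be named (Grk6 and Rgs2 in GM4 DC at 6 h, beyond these, stand beside their response in GM DC). Nearest genes are the 3 highest Pearson r, expressed-sequence names left out. The 6 members, the 4 lists, the 8 marker lists and the tests were chosen with earlier results of these data known. Other settings tried were a replicate block, array weights, an offset of 1 or 64, median centring, quantile normalization, a 40th percentile filter on mean signal, a fit without the trend, an RNA quality covariate (mean log2 ratio of Gapdh and β-actin), 2 doubted arrays left out (GM 0 h replicate 3 and GM 6 h replicate 1), only the groups compared, and each array left out in turn.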

Additional observations from a re-analysis of the deposited data

How the results depend on the processing

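Under 26 settings, 15 of the 29 called receptor differences stayed called under each setting that tested the gene, 14 lost their call under at least 1 and 0 reversed. Of the 37 not called, 13 were called under at least 1 setting, and 11 had another sign under at least 1, uncalled there too. The number of the 6 receptors called moved by over 1.5 times in the following cases, and the cause was not tested. Smaller moves are left out here. With an offset of 64 it was 1 between DC types at 6 h and 1 for the difference of responses to 20 h. Median centring called 4 in GM DC from 0 to 20 h. The filter, under which fewer probe sets are tested, called 1 for the response to 6 h. Array weights called 4 between DC types at 0 h, 2 at 6 h and 1 for the response to 6 h. The RNA quality covariate left 2 between DC types at 6 h. Without the 2 doubted arrays there were 4 between DC types at 0 h, 1 at 6 h and 4 in GM DC from 0 to 6 h. Fitting only the groups compared left 3 in GM DC from 6 to 20 h. With each array left out in turn the count ranged from 0 to 4 between DC types at 6 h, from 1 to 3 at 20 h, from 3 to 5 from 6 to 20 h in GM DC and in GM4 DC, and from 0 to 1 for the response to 6 h. Averaging a gene's probe sets changes nothing, since each receptor had 1.

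The replicate block called 4 between DC types at 0 h and 4 in GM DC from 0 to 6 h (in each Ccr1 and Cxcr4 besides Ccr7 and Ccr2), 1 for the response to 6 h (Ccr7, -1.46) and 1 for that to 20 h (Ccr7, -1.15). It also called Ccr1 between DC types at 20 h (-0.71, adjusted p 0.022) and from 0 to 20 h in GM DC (0.52) and GM4 DC (0.62). Replicate numbers are shared across groups, but nothing in the labels says that a number marks a shared batch. Deviations from group means correlated at 0.0026 to 0.332 over 33 pairs of arrays with the same number, with 16 over 0.1, and at -0.296 to 0.173 over 60 with different numbers. Each of the 15 arrays correlated more with its own number than with others on average, which is a hint from the data, not the design. In a group of 2 arrays the deviations mirror each other, so the pairs are not independent. Values below 0 for different numbers are partly built in. Groups of 2 arrays and signals under 16, as for Ackr3 in GM4 DC before 20 h and Ccr2 in GM4 DC at 20 h, set the limits.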
